A study of Mus musculus with 2 samples.

Results

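HSP70-high CD8 T cells are splenic CD8 T cells that carried many transcripts of Hspa1a and Hspa1b, the gene copies that encode the inducible chaperone HSP70. A cell was taken as a member when its summed unique molecular identifiers (UMIs, each standing for 1 captured transcript) of Hspa1a and Hspa1b reached 3. It also had to pass a gate of at least 200 detected genes, under 10% mitochondrial UMIs, at least 1500 UMIs, at least 1 UMI of Cd8a or Cd8b1 and at least 1 UMI of Cd3d, Cd3e or Cd3g. By this rule 446 of 8663 gated CD8 T cells in the CTRL library and 1483 of 9849 in the DHEA library were members, 1929 of 18512 in all and of 21623 deposited barcodes. Since the rule reads the Hspa1a and Hspa1b UMIs, their values are given as a description.

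Cells came from spleens of wild-type (WT) mice, given dehydroepiandrosterone (DHEA) at 40 mg/kg in 20 µL of sesame oil under the skin every day for 21 days, or the oil alone (CTRL). The labels call the DHEA treatment a model of PCOS (polycystic ovary syndrome). Magnetic beads were used to isolate CD8 T cells after red cell lysis, and transcript 3' ends of single cells were sequenced from droplets. There was 1 library per group, and the labels do not say how many animals each held, so a difference between CTRL and DHEA is a difference between 2 libraries. No p-value is given, and intervals (exact, 95%) cover counting error only.

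HSP70 chaperones bind unfolded stretches of other proteins and release them in cycles driven by ATP. J-domain proteins such as Dnajb1 deliver substrates and stimulate the ATPase, and HSP110 proteins such as Hsph1 exchange the nucleotide. The inducible copies are switched on by the heat shock factor Hsf1 when proteins misfold, and also in T cells by activation or by handling of tissue. Hsf1 binds repeats of a GAA triplet placed head to head or tail to tail.

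The upstream sequences of both copies are shown because the rule sums these copies, and the letters show how alike these upstream stretches are. They are the 250 bases before each annotated start in RefSeq, build GRCm38.p6, both on the minus strand, with Hspa1a at chr17:34972157-34972406 and Hspa1b at chr17:34959239-34959488. The submitters' processing notes name mm39, so these coordinates were not joined to the count data. Capitals mark a match to GAANNTTC, the head-to-head pair of the heat shock element.
Hspa1a: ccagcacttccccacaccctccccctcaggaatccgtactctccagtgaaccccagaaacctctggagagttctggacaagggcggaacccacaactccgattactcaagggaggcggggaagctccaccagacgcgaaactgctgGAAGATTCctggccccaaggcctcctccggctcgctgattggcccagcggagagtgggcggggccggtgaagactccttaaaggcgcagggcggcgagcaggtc
Hspa1b: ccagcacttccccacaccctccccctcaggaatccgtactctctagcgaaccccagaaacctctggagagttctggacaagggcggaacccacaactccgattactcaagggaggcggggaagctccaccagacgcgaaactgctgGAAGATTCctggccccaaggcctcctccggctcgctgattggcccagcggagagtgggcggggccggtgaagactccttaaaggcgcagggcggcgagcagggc
The copies differed at 3 of 250 bases (98.8% identity), namely C44T, T47C and T249G, with the Hspa1a base first and positions counted from 1 at the 5′ end of the stretch. Each held 1 match, with 96 bases between it and the start. A pair in either order, GAANNTTC or TTCNNGAA (each is its own reverse complement), was present in 12.8% of 32851 promoter windows. Counted by gene, it was present in 14.5% of 27025 genes with a window. Of the inducible heat shock genes with a window, it was present in 9 of 23, both copies included. With copies this alike, a read may be assigned to either gene or dropped, so the split between Hspa1a and Hspa1b is uncertain and their sum is used.

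Before depth was equalised, members were 5.15% of gated cells in CTRL (4.69 to 5.63) and 15.1% in DHEA (14.4 to 15.8). The libraries differed in depth, with a median of 5628 UMIs per gated cell in CTRL and 4851 in DHEA. After each cell was thinned at random to 1500 UMIs, 1.22% (1.00 to 1.48) and 5.02% (4.59 to 5.47) still carried 3 or more Hspa1a and Hspa1b UMIs. The DHEA share was the higher at every threshold plotted, with or without thinning. The rest of the cells formed no gap below the threshold. In CTRL 375 cells had 1 UMI, 130 had 2 and 100 had exactly 3, and in DHEA the same counts were 976, 428 and 299. HSP70-high is therefore a class set by a threshold, and whether distinct states lie behind these counts was not tested.

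**Figure D1:**
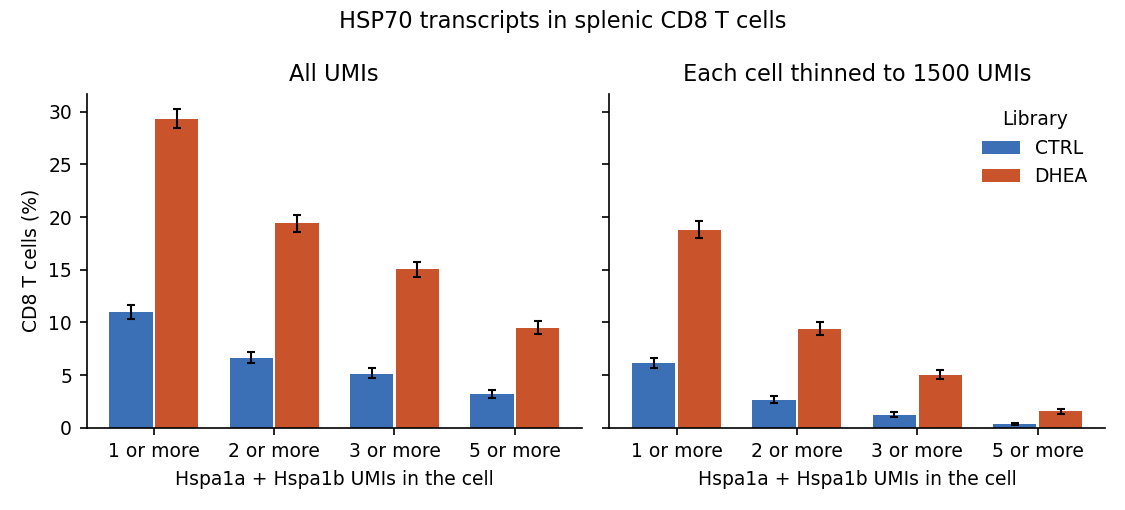
Percent of gated CD8 T cells (y axis) with at least 1, 2, 3 or 5 summed Hspa1a and Hspa1b UMIs (x axis) in CTRL (blue) and DHEA (orange), with all UMIs at left and after thinning at right. Bars are shares with exact 95% binomial intervals, and at 3 or more UMIs they stand at 5.15% and 15.1% at left and 1.22% and 5.02% at right.

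Among the members, chosen on these UMIs, the median member held 5 Hspa1a and Hspa1b UMIs in CTRL and 6 in DHEA, and the highest 32 and 38. Members held 82.8% of all such UMIs of the gate in CTRL and 85.3% in DHEA. As the authors' counting assigned them, 31.8% of the 2 copies' UMIs in CTRL and 33.9% in DHEA were given to Hspa1a. The assignment of reads to the copies was not tested, so this split and the counts by copy that follow are uncertain. Both copies were detected in 188 of the 446 CTRL members and in 809 of the 1483 DHEA members. Hspa1b alone was seen in 207 and 559 members, and Hspa1a alone in 51 and 115. As CPM (counts per 1000000 UMIs of the set), Hspa1a stood at 335 in CTRL and 419 in DHEA, and Hspa1b at 717 and 817. For all other genes the CPM leaves the UMIs of both copies out of the total. Barcodes that passed the depth gates but lacked a CD8 or a CD3 UMI reached 3 such UMIs in 4.24% of 425 cases in CTRL and 8.57% of 537 in DHEA.

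For every other gene, members were set against an equal number of cells with 0 Hspa1a and Hspa1b UMIs from the same library, paired by total UMIs. Median depth was 6437 UMIs in members and 6429 in matched zero cells in CTRL, and 5850 and 5841 in DHEA. Detected genes were alike too, at 2244 and 2233 in CTRL and 2097 and 2091 in DHEA. The mitochondrial share was higher in members, with medians of 2.79% against 2.45% in CTRL and 2.14% against 2.01% in DHEA. A gene was called higher or lower where it was at least 1.5-fold apart the same way in both libraries, which is a size threshold, not a statistical test. Of 6230 genes with at least 100 UMIs over both sets in each library, 33 were called higher (0.53%) and 3 lower (0.0482%). In CTRL alone 2.34% of genes were 1.5-fold higher and 1.17% lower, and in DHEA alone 0.642% and 0.0803%, with 1483 members there against 446.

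**Figure D2:**
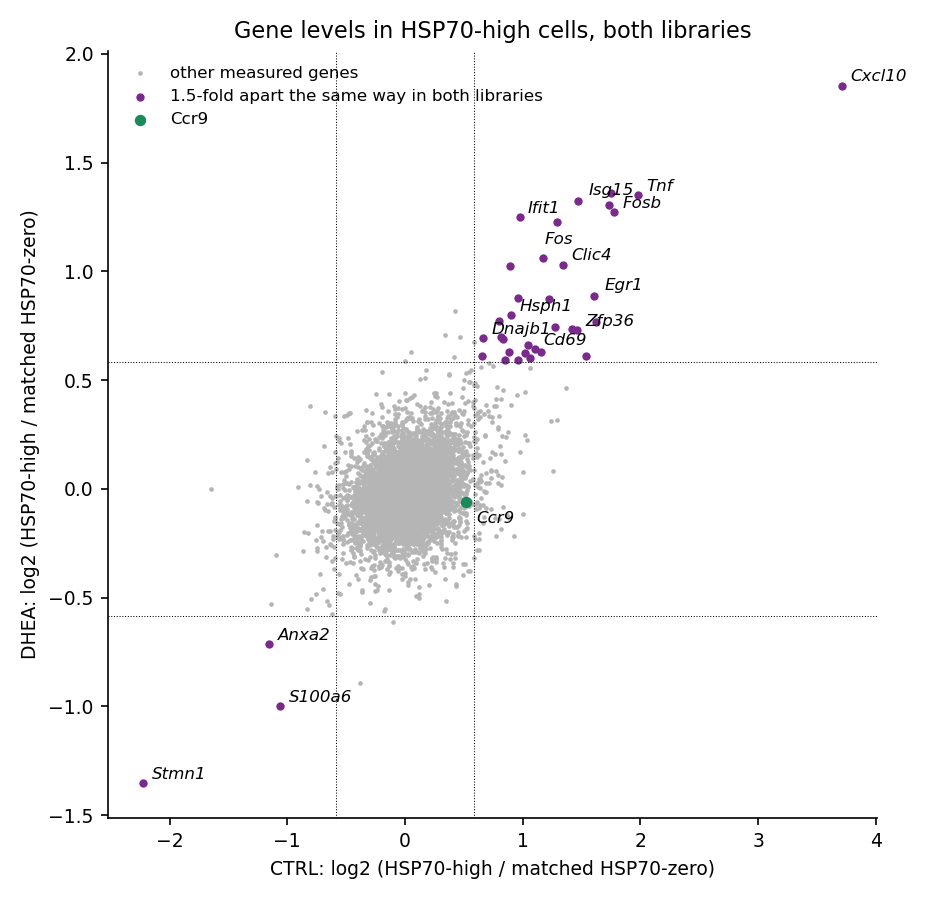
Each point is 1 of 6230 measured genes, with its log2 ratio of HSP70-high over matched zero cells in CTRL (x axis) and DHEA (y axis), and dotted lines mark 1.5-fold. Purple points are the 33 genes called higher and 3 called lower, with Cxcl10 farthest out, while Ccr9 (green) lies at 0.52 and -0.06.

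Heat shock genes beyond the 2 copies were higher by modest amounts. Of the 29 genes in the inducible heat shock list, 2 define the members and 21 others were measured. Of these, 16 were higher in both libraries and 2 lower in both, beside 29.5% and 30.3% of all measured genes, and the list medians were 0.16 in CTRL and 0.13 in DHEA on the log2 scale, beside 0.02 and -0.01 over all genes. Called higher were 2 of the 21, Hsph1 and Dnajb1. Hsph1, an HSP110 nucleotide exchange factor for HSP70, stood at 104 CPM in members and 55.8 in matched zero cells of CTRL, and at 113 and 64.9 in DHEA. Its log2 ratios were 0.90 (0.62 to 1.19) and 0.80 (0.65 to 0.95). Dnajb1, the J-domain partner of HSP70, stood at 106 and 67.2 CPM in CTRL and at 156 and 96.3 in DHEA. The log2 ratios of Dnajb1 were 0.66 (0.40 to 0.93) and 0.69 (0.57 to 0.82).

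The other chaperone genes fell short of 1.5-fold in 1 or both libraries. Dnajb4, another J-domain protein, had log2 ratios of 0.47 in CTRL and 0.70 in DHEA. Hsp90aa1, the stress-inducible cytosolic HSP90, stood at 429 and 323 CPM in CTRL and 433 and 345 in DHEA (0.41 and 0.33). Its constitutive relative Hsp90ab1 had 0.24 and 0.21, the mitochondrial chaperonins Hspe1 0.23 and 0.25 and Hspd1 0.13 and 0.13, and the J-domain protein Dnaja1 0.29 and 0.11. The constitutive HSP70 gene Hspa8 differed by 0.08 and 0.01, and the ubiquitin gene Ubb by 0.01 and 0.03. Mrpl18 (-0.25 and -0.15) and Ppid (-0.11 and -0.09) were the 2 members lower in both libraries. Hsf1, the factor that activates the inducible copies, had -0.05 (-0.46 to 0.35) and 0.06 (-0.17 to 0.28). The 6 list members not measured were Hspa4l, Hspb1, Bag3, Hsf2, Cryab and Hspb8.

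Lists of chaperones and stress genes outside the inducible heat shock response had small medians, and the largest held more genes lower than higher. Of 23 measured constitutive chaperones, which include the TRiC chaperonin, 4 were higher and 10 lower in both libraries, beside 29.5% and 30.3% of all measured genes. The list medians were -0.05 and -0.04, and none was called. The proteasome and ubiquitin list had 31 measured genes, 4 higher and 13 lower in both, none called, with medians of -0.04 and -0.02. Of 15 measured genes of endoplasmic reticulum stress, 5 were higher and 4 lower in both (medians 0.02 and 0.01). No gene was called in the lists for mitochondrial chaperones (8 measured), oxidative stress (14) or the integrated stress response (11). In the last of these, Ddit4, an inhibitor of mTOR complex 1, had 0.76 and 0.38.

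Immediate early genes were the list with most genes called. They are the genes that cells transcribe within minutes of a stimulus, and handling of tissue induces them too. Of 20 measured, 17 were higher in both libraries and 3 lower, beside 29.5% and 30.3% of all measured genes. The list medians were 0.63 in CTRL and 0.36 in DHEA, and 7 of the 20 were called higher, beside 0.53% of all. Fos, a subunit of the AP-1 transcription factor, stood at 446 CPM in members and 183 in matched zero cells of CTRL, and at 320 and 136 in DHEA. Its log2 ratios were 1.29 (1.14 to 1.44) and 1.23 (1.13 to 1.33). Fosb, a related subunit, had 170 and 49.6 CPM in CTRL and 80.7 and 33.4 in DHEA, ratios of 1.78 (1.51 to 2.06) and 1.27 (1.07 to 1.48). Jun, the partner of Fos in AP-1, stood at 863 and 490 CPM and at 721 and 444 (0.82 and 0.70).

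Egr1, a zinc finger factor of the same early wave, had ratios of 1.61 (1.19 to 2.04) and 0.89 (0.62 to 1.16), and Zfp36, which destabilises cytokine mRNAs, 1.46 and 0.73. Btg2, an antiproliferative gene, had 0.96 and 0.59, and the small GTPase gene Rhob 1.41 and 0.73. Dusp1 (0.82 and 0.41) and Ier2 (0.90 and 0.38) passed 1.5-fold in CTRL only. The 3 members lower in both libraries were Ier5 (-0.06 and -0.02), Dusp2 (-0.02 and -0.13) and Gadd45b (-0.02 and -0.25).

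**Figure D3:**
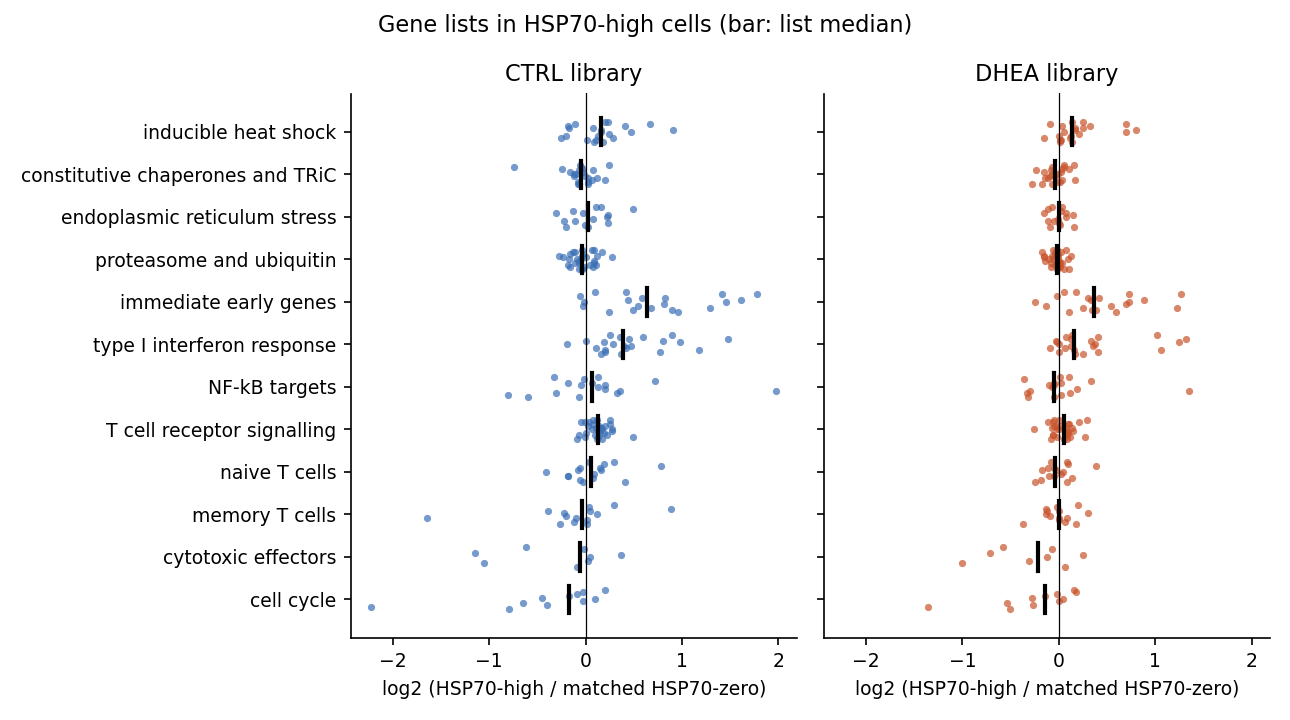
Log2 ratios of HSP70-high over matched zero cells (x axis) for the measured genes of 12 lists (rows), CTRL at left and DHEA at right, with each point 1 gene and each black bar the list median. In CTRL the immediate early and interferon lists lie to the right (medians 0.63 and 0.38), heat shock genes less far (0.16), and constitutive chaperones around 0. In DHEA the medians are 0.36 for immediate early, 0.16 for interferon and 0.13 for heat shock genes, so the last 2 lie close together.

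Fos was higher in each further class of HSP70 UMIs, below the threshold as well as above it, but not every stress gene was. Fos stood at 177 CPM in CTRL cells with 0 Hspa1a and Hspa1b UMIs, 238 with 1, 318 with 2, 389 with 3 to 5, 441 with 6 to 10 and 607 with 11 or more. In DHEA the same classes held 145, 197, 225, 263, 336 and 428 CPM of Fos. Ppp1r15a, of the integrated stress response list, which restarts translation after stress, had no such order in CTRL, at 152, 150, 168, 137, 150 and 174 CPM. In DHEA it stood at 116, 121, 125, 115, 139 and 191 CPM, higher in the top classes. Dnajb1 went from 60.3 CPM at 0 UMIs to 125 at 11 or more in CTRL, and from 98.2 to 187 in DHEA. Its intervals at the ends did not overlap in either library (58.0 to 62.6 against 96.5 to 159, and 94.8 to 102 against 167 to 208). Cells with more HSP70 UMIs were also deeper, with a median of 7160 UMIs at 11 or more and 5568.5 at 0 in CTRL, and CPM is relative to depth.

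**Figure D4:**
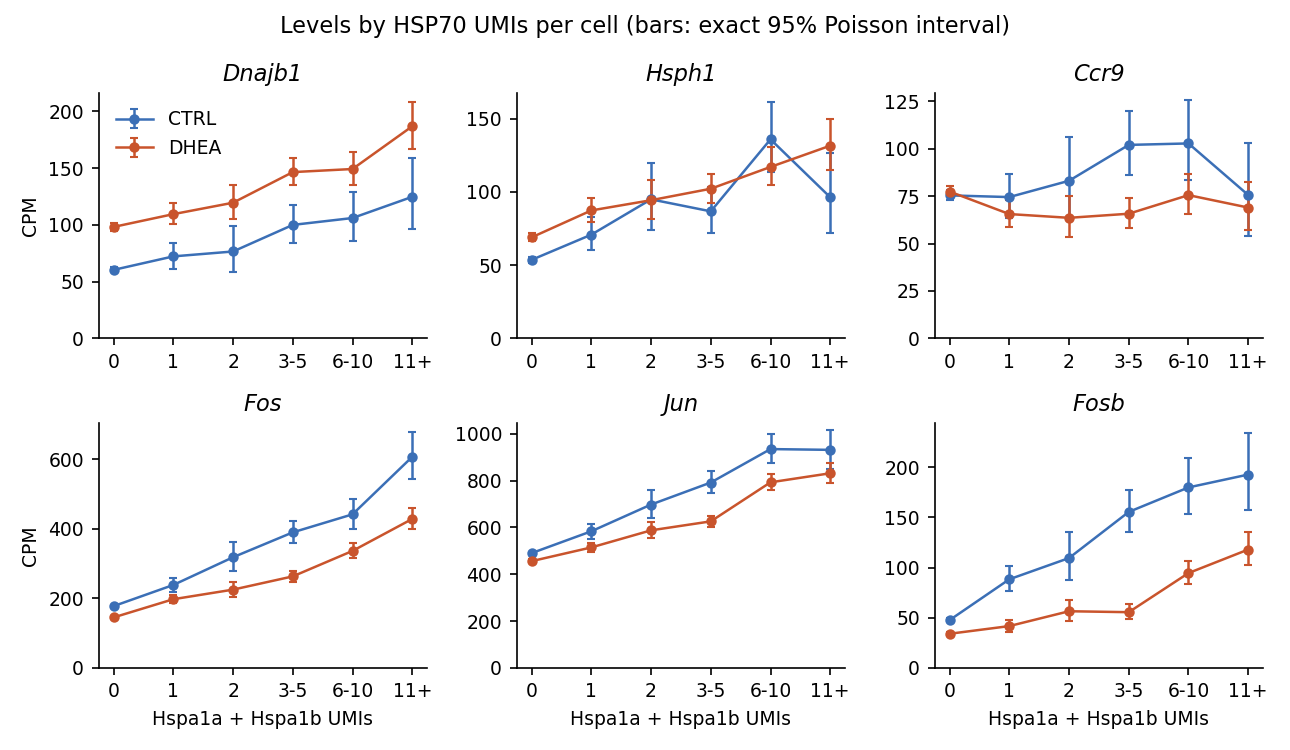
CPM (y axis, from 0) of 6 genes in gated CD8 T cells grouped by their summed Hspa1a and Hspa1b UMIs (x axis), CTRL in blue and DHEA in orange, with exact 95% Poisson intervals. Fos goes from 177 to 607 CPM in CTRL and from 145 to 428 in DHEA, whereas Ccr9 shows no trend.

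Seen from the other side, cells with AP-1 transcripts were more often HSP70-high. With all cells thinned to 1500 UMIs for both measures, 3.22% (2.25 to 4.45) of 1087 CTRL cells with both a Fos and a Jun UMI were HSP70-high, against 0.614% (0.390 to 0.921) of 3743 with neither. In DHEA the shares were 11% (9.27 to 13) of 1142 cells and 2.58% (2.14 to 3.09) of 4532. The share in DHEA cells with neither UMI after thinning exceeded that over all CTRL cells (1.22%), and the libraries differed within both classes. Such cells can hold Fos and Jun UMIs at full depth. Whether the difference between libraries depends on these transcripts was not tested. Dnajb1 divided the cells in the same direction, with 2.26% HSP70-high among CTRL cells with a Dnajb1 UMI and 1.12% among those without, and 7.59% and 4.55% in DHEA. The CTRL intervals for Dnajb1 overlapped (1.34 to 3.55 and 0.898 to 1.38).

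**Figure D5:**
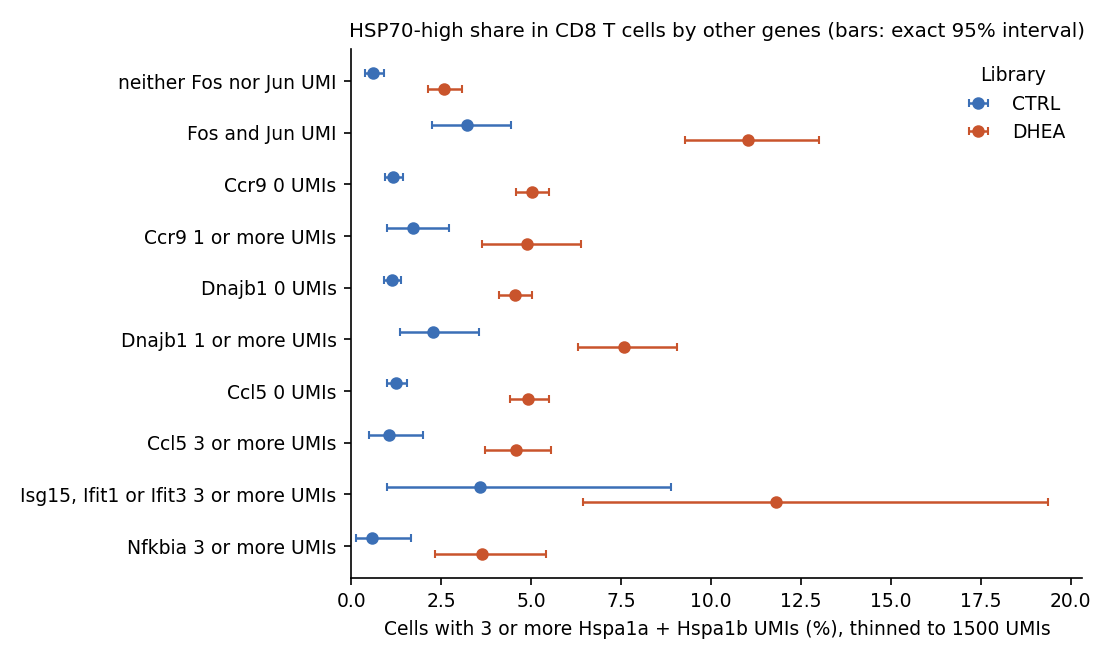
Share of cells with 3 or more Hspa1a and Hspa1b UMIs (x axis, percent) among gated CD8 T cells split by UMIs of other genes (rows), all after thinning to 1500 UMIs, with exact 95% binomial intervals. Cells with Fos and Jun UMIs stand at 3.22% in CTRL and 11% in DHEA, those with neither at 0.614% and 2.58%.

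Of the named genes called higher, Cxcl10 and Tnf had the largest mean ratios over both libraries, and a minority of members carried them. Cxcl10, a chemokine that attracts CXCR3-bearing T cells and is induced by interferons, stood at 63.4 CPM in members and 4.82 in matched zero cells of CTRL (184 and 14 UMIs), and at 42.9 and 11.9 in DHEA. Its log2 ratios were 3.72 (2.93 to 4.62) and 1.85 (1.53 to 2.19). Cxcl10 was detected in 45 of the 446 CTRL members against 8 matched cells, and the 5 richest members held 46.7% of its UMIs there. In DHEA Cxcl10 was seen in 136 members and 54 matched cells.

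Tnf, which encodes the inflammatory cytokine TNF, had 70.6 and 17.9 CPM in CTRL and 72.6 and 28.5 in DHEA, ratios of 1.98 (1.53 to 2.45) and 1.35 (1.13 to 1.57). It was detected in 23.1% of CTRL members and 8.07% of their matched cells. Ccl4, a chemokine of activated and memory CD8 T cells, had 1.15 and 0.63. In CTRL 5 members held 51.0% of its UMIs, and among DHEA cells without a Ccl5 UMI after thinning its ratio was -0.38. Cd69, an early activation antigen that retains T cells in tissue, stood at 521 and 243 CPM in CTRL and 470 and 301 in DHEA (1.10 and 0.64). The only other gene among 17 measured NF-kB targets to pass 1.5-fold upward in CTRL was Nfkbie (0.71 and 0.34), and Nfkbia, the feedback inhibitor of the pathway, had -0.02 and -0.36.

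Genes of the type I interferon response were higher too. Of 22 measured, 18 were higher in both libraries and 1 lower, beside 29.5% and 30.3% of all measured genes. The list medians were 0.38 and 0.16, and 4 were called higher, beside 0.53% of all. Isg15, a ubiquitin-like protein induced by interferon, stood at 141 and 50.6 CPM in CTRL and 133 and 53 in DHEA, ratios of 1.47 (1.2 to 1.75) and 1.32 (1.17 to 1.48). Ifit1 and Ifit2, which act on foreign RNA, had 0.97 and 1.25, and 1.17 and 1.06. Ifih1, the RNA sensor MDA5, had 0.89 and 1.02. The interferon signalling gene Irf9 differed little (0.20 and 0.00). When cells with 3 or more UMIs of Isg15, Ifit1 and Ifit3 after thinning were left out, Isg15 had 1.43 and 1.12, Ifit1 0.86 and 1.13 and Ifit2 0.66 and 0.97. The cells left out were 10 of 446 members and 3 of 446 matched cells in CTRL, and 35 and 9 of 1483 in DHEA.

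Interferon response elements, read as a tandem repeat of GAAA with 2 bases between the copies (TTTC on the other strand), were looked for in the 250 bases upstream of the genes called higher. Of the 33, 21 had a RefSeq window, and 4 of these (19%) held a match, beside 2.98% of all windows, 3.57% of the measured genes with a window and 12 of 25 genes of the interferon list. A heat shock pair was present in 4 of the 21 as well, beside 12.3% of the measured genes with a window. The stretches around the matches of 3 interferon-induced genes and around the heat shock pair of Hsph1 are printed because they show the letters shared with genes of their own list, with matches in capitals (overlapping in Isg15). Isg15 lies at chr4:156200819-156201068 (minus), Ifit1 at chr19:34640639-34640888 (plus), Cxcl10 at chr5:92348890-92349139 (minus) and Hsph1 at chr5:149636337-149636586 (minus), each region being the 250 bases searched.
Isg15: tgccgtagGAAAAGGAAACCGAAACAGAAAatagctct
Ifit1: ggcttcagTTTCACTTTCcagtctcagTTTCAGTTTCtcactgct
Cxcl10: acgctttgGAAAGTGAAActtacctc
Hsph1: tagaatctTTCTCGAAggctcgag
The match nearest the start was 56 bases from it in Isg15, 75 in Ifit1, 203 in Cxcl10 and 25 in Hsph1. Dnajb1 and Ifit2 had no match to their list's motif in this window.

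Among the remaining genes called higher, most named here after their values were seen, were histones, transporters and regulators. H2bc4 (1.22 and 0.87) and H1f2 (1.05 and 0.66) encode histones. Slc16a1 (1.28 and 0.75) carries lactate, Slc6a19 (0.88 and 0.63) neutral amino acids, and Slc35e2 (0.83 and 0.69) belongs to a family of nucleotide sugar transporters. The chloride channel gene Clic4 stood at 55.1 and 21.7 CPM in CTRL and at 58.0 and 28.4 in DHEA (1.34 and 1.03). Rgcc, a regulator of the cell cycle, had 1.02 and 0.63, Ccdc117 0.79 and 0.77, and the nuclear-retained RNA Neat1 0.85 and 0.59. The last of these was the only 1 of 6 measured nuclear-retained transcripts called, and Malat1 had 0.30 and 0.12. Unnamed transcripts made up 6 of the 33.

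Mitochondrial transcripts were somewhat higher in members. Of 12 measured mitochondrially encoded genes, 10 were higher in members of both libraries and 1 lower, beside 29.5% and 30.3% of all measured genes. The list medians were 0.15 in CTRL and 0.04 in DHEA. After thinning, HSP70-high cells were 0.597% of CTRL cells with under 2% mitochondrial UMIs, 1.27% of those with 2 to 4% and 2.49% of those with 4 to 10%. In DHEA the same shares were 3.86%, 6.01% and 6.52%. Among cells with under 5% mitochondrial UMIs, 31 genes were called higher, 30 of them among the 33. This limit kept 433 of 446 members in CTRL and 1458 of 1483 in DHEA, so it recounts nearly the same cells and cannot separate cell quality. How far cell quality enters the differences between members and matched cells was not tested.

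Lower in members were 3 genes that proliferating and effector T cells carry. Stmn1, a microtubule regulator high in dividing cells, stood at 13.4 CPM in members and 62.7 in matched zero cells of CTRL, and at 20.5 and 52.2 in DHEA, ratios of -2.22 (-2.76 to -1.72) and -1.35 (-1.61 to -1.10). In CTRL 5 matched cells held 65.9% of its UMIs. S100a6, a calcium-binding protein of effector and memory cells, had 16.9 and 35.1 CPM in CTRL and 65.6 and 131 in DHEA (-1.06 and -0.999), and 5 matched cells held 59.8% of its UMIs in CTRL. Anxa2, a membrane-binding annexin, had -1.15 and -0.71. Lgals1, a galectin of effector cells, was close to the limit at -0.62 and -0.57.

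Genes of the cell cycle were lower in 7 of 11 measured cases in both libraries and higher in 2, beside 30.3% and 29.5% of all measured genes. The list medians were -0.17 and -0.15. Hmgb2, a chromatin protein of cycling cells, had -0.65 and -0.53 and Cks2, a cofactor of cyclin-dependent kinases, -0.80 and -0.51. Cells with a Mki67 or Top2a UMI after thinning were 1 of 446 members and 6 of 446 matched cells in CTRL, and 23 and 25 of 1483 in DHEA. The list median was 0.03 in cells with neither a Fos nor a Jun UMI after thinning to 1500 UMIs, 110 members in CTRL and 438 in DHEA, which can hold such UMIs at full depth.

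Genes of the T cell receptor and coreceptor differed by less than 1.5-fold. Of 31 measured genes of T cell receptor signalling 17 were higher and 4 lower in both libraries, beside 29.5% and 30.3% of all measured genes. None was called, and the list medians were 0.12 and 0.06. Trac, the constant part of the receptor alpha chain, differed by 0.33 and 0.08 and the coreceptor chain Cd8b1 by 0.25 and 0.07. Cd8a, the other chain of the coreceptor, differed by 0.14 and 0.12, Cd3e, a chain of the receptor complex, by -0.01 and -0.06, and Cd3d by -0.07 and -0.06. The list of 16 naive genes had 6 higher and 6 lower in both libraries, and none called. Klf2, which keeps T cells quiescent and circulating, was the naive gene farthest from 0, at 911 and 532 CPM in CTRL and 1094 and 839 in DHEA (0.78 and 0.38). The homing receptor gene Ccr7 (-0.19 and -0.05) and the survival receptor gene Il7r (-0.06 and -0.18) were slightly lower.

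Memory genes went both ways, much like all measured genes. Of 14 measured, none was called, and 4 were higher and 4 lower in both libraries, beside 29.5% and 30.3% of all measured genes. Ccl5, a chemokine that memory CD8 T cells keep ready as mRNA and protein, had 626 and 753 CPM in CTRL and 1333 and 1727 in DHEA, ratios of -0.27 and -0.37. After thinning, HSP70-high cells were 1.25% of CTRL cells without Ccl5 and 1.06% of those with 3 or more Ccl5 UMIs, and in DHEA 4.92% and 4.56%. In each library the intervals of these shares overlapped. Xcl1, a chemokine of activated CD8 T cells, had -1.65 in CTRL and -0.00 in DHEA, but 1 matched CTRL cell held 70 of the 144 Xcl1 UMIs of its set, and the difference between libraries was not tested.

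Steroid-responsive and death genes were counted as lists because DHEA is a steroid precursor and stress can kill cells. Of 7 measured steroid receptor and glucocorticoid response genes none was called, with Txnip, which binds thioredoxin, at -0.49 and -0.20. None of 12 measured genes of apoptosis and p53 was called either, with the death receptor gene Fas at 0.52 and 0.25.

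Ccr9, the gut-homing chemokine receptor named among the markers of these cells, was not raised in them throughout. It stood at 97.5 CPM in members and 68.2 in matched zero cells of CTRL, a log2 ratio of 0.52 (0.25 to 0.78), and at 69.5 and 72.4 in DHEA, a ratio of -0.06 (-0.22 to 0.10). After thinning, a Ccr9 UMI was found in 15.7% of CTRL members and 8.74% of matched cells, and in 10.2% and 10.9% in DHEA. Over the classes of HSP70 UMIs, Ccr9 in CTRL was 75.4 CPM at 0, 102 at 3 to 5 and 75.6 at 11 or more. The label's other marker, Dnajb1, was found after thinning in 15.5% of members and 10.3% of matched cells in CTRL and in 21.9% and 14.1% in DHEA. Dnajb1 was thus higher in members of both libraries, and Ccr9 in CTRL alone and by less than 1.5-fold. Barcodes with neither a CD8 nor a CD3 UMI were few, 17 in CTRL and 32 in DHEA with medians of 2960 and 2626 UMIs. After thinning, 0 of the 17 carried a Ccr9 UMI, which allows a share of up to 17.6% by a limit of 3 counts and 19.5% by the exact interval. Of the 32, 3 did (9.38%, 1.98 to 25.0). A Dnajb1 UMI was found in 2 of the 17 and 4 of the 32. These barcodes are too few to set a close background, and the Ccr9 and Dnajb1 shares of members in both libraries lay within their intervals.

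Other receptors for homing and retention differed in their own ways. Of 14 measured, 7 were higher and 3 lower in both libraries, beside 29.5% and 30.3% of all measured genes. Gpr183, which senses oxysterols and guides lymphocytes within the spleen, had 0.50 in both libraries, and the tissue homing receptor Cxcr6 had 0.44 and 0.30. Itga4, an integrin chain, had -0.26 and -0.40.

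Within the members, the DHEA library was set against CTRL. Of 7978 genes with at least 100 UMIs over both, 186 were higher in DHEA by 1.5-fold or more (2.33%) and 183 were lower (2.29%). Of the 6 highest, Gzma and Klra3 came from few cells. Gzma, a granule protease, had 2.41 CPM (7 UMIs) in CTRL members and 12.9 in DHEA members, a log2 ratio of 2.42 (1.33 to 3.77), while among matched zero cells the ratio was 5.61 (4.05 to 7.89). In DHEA 5 members held 64.9% of the Gzma UMIs and 5 matched cells 59.8%. Gzmm, another granule protease, had 2.32 in members and 1.38 in zero cells, and the killer cell lectin-like receptors Klre1 2.19 and 1.37 and Klra3 2.09 and 1.34. The 15 Klra3 UMIs of CTRL members came from 5 cells. Pogk (2.08 and 0.71) and the kinase gene Lrrk1 (2.01 and 0.67) completed the 6 highest.

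The lowest in DHEA members were Gria3 (-1.40), Klf4 (-1.25), Zc3h6 (-1.21), Homer1 (-1.17), the complex I gene Ndufs8 (-1.13) and Auts2 (-1.10). Klf4, a Krüppel-like factor of the early response, had -0.13 in zero cells, and Ndufs8 -1.28. Immediate early genes had a median of -0.23 over 25 genes in members and 0.02 in zero cells, with Fosb at -1.08 and -0.57 and Fos at -0.48 and -0.42. Of the inducible heat shock list, 23 genes other than Hspa1a and Hspa1b were measured, and all 23 were higher in DHEA members, beside 47.1% of all 7978 genes (median 0.20, and 0.18 in zero cells), 2 of them by 1.5-fold. Dnajb1 had 0.55 in members and 0.52 in zero cells, and Dnaja1 0.46 and 0.64. Memory genes were higher in DHEA in 17 of 18 cases among members, against the same 47.1% of all genes, with medians of 0.64 in members and 0.66 in zero cells.

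Markers of other cell types were summed in members and matched cells. The summed B cell markers stood at 286 and 272 CPM in CTRL and 295 and 287 in DHEA, almost all from Ighm, and Ms4a1 was at 0 in all 4 sets. Natural killer markers were 8.26 and 14.5 CPM in CTRL and 33.5 and 39.3 in DHEA, with Ncr1 at 0. Plasmacytoid dendritic cell markers were 246 and 200 CPM in CTRL and 221 and 209 in DHEA, mostly from Bst2 and Ccr9. In CTRL, members and matched cells held 393 and 351 UMIs of Bst2, 283 and 198 of Ccr9, and 1 and 0 of Siglech. Stromal and endothelial markers, with 3 of 4 at 0, were 164 and 135 CPM in CTRL and 116 and 115 in DHEA. Gamma delta T cell markers were 3.1 and 3.79 CPM in CTRL and 6.62 and 10.7 in DHEA. Erythroid markers were 2.06 and 1.72 CPM in CTRL and 0.464 and 11.6 in DHEA, where 97 of the 100 UMIs of the matched cells were of Car1. Myeloid markers ranged from 57.9 to 66.2 CPM over the 4 sets. Plasma cell, platelet and CD4 T cell markers reached 4.13 CPM at most. Without cells that carried a defining marker of another type, 31 genes were called higher, 29 of them among the 33. This kept 442 of 446 members in CTRL and 1457 of 1483 in DHEA, so nearly the same cells were recounted. The libraries shared 51 barcodes, and 1 CTRL and 8 DHEA members had such a barcode.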

How the data were processed

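Splenic CD8 T cells were measured in 2 libraries, CTRL and DHEA, by 10x Genomics 3' sequencing. The deposited values are raw UMI counts for 33696 genes in each barcode, and the file headers give Cell Ranger 8.0.1 as their source. Seurat 4.3.0 and build mm39 appear in the submitters' processing notes without a stated role. All barcodes of the matrices were used as deposited.

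UMIs of members and of zero cells matched 1 to 1 on total UMIs (largest gap 5.25%) were summed per library with Python 3.11.15, numpy 2.4.6, scipy 1.17.1 and pandas 2.3.3. Log2 ratios of CPM carry exact 95% intervals from the split of 2 counts, and shares carry Clopper-Pearson intervals. No test was run, since each group has 1 library, and spread between animals is not covered. Thinning drew 1500 UMIs per cell with seed 11. Depth was 49171522 UMIs over gated CTRL cells and 49027750 over DHEA cells.

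Scrublet in scanpy 1.11.5 marked 0 CTRL and 1 DHEA barcode as doublets and so did not work here; none was removed, and leaving out the 7.37% and 9.34% of barcodes with the highest scores was an alternative. Other alternatives changed the matching, the member threshold, the UMI minimum, the scaling (TMM of edgeR 4.0.16, R 4.3.3) and the cells used. In a simulation of the matched comparison over 33694 genes, 97% of genes raised 2-fold and 85% of genes lowered 2-fold were called, and 0 of 6016 unchanged genes. The simulation drew Poisson counts around summed UMIs, without spread between cells. Its rates therefore cover counting error only and cannot speak for genes whose UMIs came from few cells.

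Named genes are the 4 label markers, the 12 highest and 12 lowest called genes, all measured inducible heat shock genes, up to 4 per other list, the 6 highest and lowest between libraries within members, and a panel of T cell and chaperone genes. Gene lists and members were chosen with earlier results of these data known. Some genes of the lists and of the panel are not reported here.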

Additional observations from a re-analysis of the deposited data

Results flagged for a closer look

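For 3 named genes the difference between members and matched zero cells was past 1.5-fold in CTRL and had the other sign in DHEA. The difference between the libraries was not tested. Nfkbid, an atypical inhibitor of NF-kB, had a log2 ratio of -0.81 in CTRL and 0.02 in DHEA. Itgb1, the integrin beta-1 chain, had 0.88 in CTRL and -0.13 in DHEA. Auts2, a regulator of transcription, had 0.69 in CTRL and -0.09 in DHEA. In CTRL it was detected in 100 members and 97 matched cells, and 1 member held 25 of its 264 UMIs in members.

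HSP70 transcripts were also present in barcodes left out of the gate, more in DHEA than in CTRL. Summed Hspa1a and Hspa1b stood at 101 CPM in DHEA barcodes with 10% or more mitochondrial UMIs (81.8 in CTRL). They stood at 323 CPM in DHEA barcodes with under 1500 UMIs (85.9 in CTRL), and at 203 CPM in those without a CD8 or a CD3 UMI (90 in CTRL). Gated CD8 T cells held 255 CPM in DHEA and 75.1 in CTRL. Shallow DHEA barcodes thus carried a higher level than the gated cells of their own library, and the other DHEA classes a lower one. In CTRL every class left out stood somewhat above the gated cells.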

How the results depend on the processing

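No paired analysis was possible because each group has 1 library. The number of genes called higher was 33 of 6230 measured genes as reported. It was 20 of 4008, 94 of 9679 and 233 of 14972 with a minimum of 200, 20 and 1 UMIs. After thinning to 1500 UMIs it was 10 of 1949, with 9 among the 33. In cells with neither a Fos nor a Jun UMI after thinning it was 5 of 2319, and all 5 were among the 33. The number called lower (3) was 13 with 3 zero cells per member, 5 with all zero cells weighted by depth, 5 with members of at least 2 UMIs, 5 without the highest Scrublet scores, 1 after thinning, and 1, 49 and 226 with a minimum of 200, 20 and 1 UMIs. The gene called lower after thinning was not among the 3. With members of at least 5 UMIs 4 were called lower, and 1 was among the 3. In cells with 0 Ccl5 UMIs after thinning 3 were called lower, and 1 was among the 3. In cells with neither a Fos nor a Jun UMI after thinning 2 were called lower, and 0 were among the 3. Within members, DHEA against CTRL gave 78 higher and 69 lower genes at 200 UMIs and 680 and 609 at 20. Fewer or more genes pass a changed minimum, and fewer pass the same minimum after thinning or in fewer cells. The cause of the other changes was not tested.

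Members were 1.22% of CTRL and 5.02% of DHEA cells after thinning, 6.65% and 19.4% with at least 2 UMIs, and 3.19% and 9.51% with at least 5. At full depth they were 4.58% and 14.4% of cells with 3 or more Ccl5 UMIs after thinning, and 2.94% and 9.66% of those with neither a Fos nor a Jun UMI after thinning. Without thinning, Dnajb1 was found in 47.8% of members and 33.9% of matched cells in CTRL and in 53.4% and 40.9% in DHEA, Ccr9 in 36.5% and 28.3% and in 24.3% and 24.7%, and Fos in 74.9% and 53.4% and in 60.2% and 39.3%.

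In cells with neither a Fos nor a Jun UMI after thinning, the median of the cell cycle list over both libraries changed sign, from -0.16 to 0.0301. There Egr1 in DHEA was at -0.45, Ifit2 in CTRL at -0.29 and Gm57288 in CTRL at -0.59. Ccl4 in DHEA was at -0.38 in cells without a Ccl5 UMI after thinning. Of 1940 gene values over the alternatives, 1800 stayed within the counting interval of the reported value. The sign changed in 64 values, of which these 4 belong to genes called higher. Restricting to cells without thinned Fos or Jun UMIs and leaving out interferon-responding cells were chosen after seeing the data. Low counts limit genes under 100 UMIs. CTRL had fewer members than DHEA, so its ratios rest on fewer summed UMIs.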

Other observations

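One of the genes called higher lies near the HSP70 copies. D17H6S56E-5, an RNA gene 3 positions from Hspa1a in the RefSeq gene order, stood at 46.8 CPM in members and 24.1 in matched zero cells of CTRL, and at 48.9 and 26.6 in DHEA, log2 ratios of 0.96 (0.53 to 1.40) and 0.88 (0.64 to 1.12). Lsm2, which lies between them, had -0.03 and 0.03. Of the 15 genes on each side of the pair, 10 were measured, and 5 of these were higher in both libraries, beside 29.5% of all genes (medians 0.18 and 0.07). The nearest neighbour on the far side of Hspa1b, 1110038B12Rik, had 0.14 and 0.11.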
